A study of Jaculus jaculus with 13 samples.

Results

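Different lesser Egyptian jerboas (Jaculus jaculus) were sampled as controls, under water restriction and after the return of water. The expression of 3 solute transporters and 1 nuclear receptor was compared in their kidneys: SLC6A12, SLC17A3, SLC38A3 and ESRRB. These 4 genes were taken from the 24433 genes of the count table by their Ensembl identifiers, and all 4 were among the 15064 genes that averaged 8 or more counts and were tested. The study had placed them in one co-expression module, together with the water channel AQP2. By its methods that network used more animals of the same experiment than the 13 analysed here. Their direction of change is therefore not independent evidence, and their counts are read beside the share of all genes that behaved the same way.

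Poly-A RNA of the whole left kidney was sequenced from 13 adult, wild-caught males, housed singly with dry pellets always available. The 4 control animals drank freely, the 4 dehydrated animals had water restricted for 11 days, and the 5 rehydrated animals had 7 days of restriction and then 3 days of free water, by the sample labels. The study's methods give slightly different durations, and its authors state that the water history of the animals before acclimatization is unknown. SLC6A12, SLC17A3, SLC38A3 and ESRRB were each compared between dehydration and control, rehydration and control, and rehydration and dehydration. A fall from dehydration to rehydration is a difference between separate animals, not a change followed within an animal. The rehydrated animals had 7 days of restriction against 11, so shorter restriction and the return of water cannot be told apart in that comparison.

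SLC6A12, also named BGT1, carries betaine and GABA into cells with sodium and chloride. Betaine is one of the organic osmolytes that cells of the renal medulla accumulate when the fluid around them becomes concentrated, which balances the osmotic load without raising the salt inside the cell. SLC17A3, also named NPT4, is an organic anion transporter of the proximal tubule that exports urate. SLC38A3, also named SNAT3, moves glutamine with sodium, and in the proximal tubule it supplies glutamine for the making of ammonia. ESRRB is an orphan nuclear receptor of the estrogen-related group, which binds DNA and controls transcription without a known steroid ligand.

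In the JacJac1.0 assembly SLC6A12 (ENSJJAG00000018463) lies on the minus strand of scaffold JH725563.1, from 1273607 to 1294715, with 15 exon blocks that hold 1927 bases. SLC17A3 (ENSJJAG00000009931) lies on the plus strand of scaffold JH725590.1, from 3830913 to 3839197, with 10 exon blocks and 1398 bases. SLC38A3 (ENSJJAG00000001766) lies on the plus strand of scaffold JH725506.1, from 1801777 to 1812944, with 15 exon blocks and 1563 bases. ESRRB (ENSJJAG00000007076) lies on the minus strand of scaffold JH725437.1, from 55960034 to 56018213, with 6 exon blocks and 1392 bases. The 4 genes sit on 4 different scaffolds, and none shares exon bases with another annotated gene. A 332-base gene on the opposite strand lies inside the span of ESRRB, and it had a mean count of 0.15 per animal.

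Total counts ranged from 14071802 to 22949762 per animal, with the lowest total in rehydration 7. Each member was well covered, with 436 to 1894 counts per animal for SLC6A12, 2519 to 5153 for SLC17A3, 2637 to 13656 for SLC38A3 and 655 to 1589 for ESRRB. Counting error was at most 4.79% of a value in any animal, and for each gene it was smaller than the spread between animals of any group. The study names control 1 and rehydration 1 as standing apart from their groups. It reports high expression of an immune-related module in both and in dehydration 3. It also notes that RNA integrity was lower in the rehydration group. From the clustering of samples by group, the study proposes that integrity was not a main driver of the differences. For each animal, the median absolute deviation of all genes from the mean of the other animals of its group was taken (log2). It was 0.29 in rehydration 1 and 0.17 to 0.24 in the other rehydrated animals. In control 1 it was 0.20, and in the other controls at most 0.19. RNA integrity and rehydration cannot be told apart in these animals.

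The osmolyte transporter SLC6A12 rose in dehydration and was the only one of the 4 genes called higher than control after water returned. Values are CPM, counts scaled to a common library total with TMM factors. The controls 1, 3, 4 and 6 had 25.3, 29.0, 26.7 and 22.8 CPM. The dehydrated animals 2, 3, 5 and 6 had 92.9, 59.1, 95.9 and 80.2 CPM. The rehydrated animals 1, 2, 4, 7 and 8 had 40.2, 39.1, 38.4, 62.7 and 40.95 CPM. All dehydrated and all rehydrated animals lay above every control, and rehydration 7 lay above dehydration 3, the lowest dehydrated animal. Group means were 25.9 ± 2.58 CPM in control (SD, n = 4), 82.0 ± 16.7 in dehydration (n = 4) and 44.3 ± 10.3 in rehydration (n = 5).

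SLC6A12 rose 3.16-fold in dehydration, a log2 fold change of 1.66 (SE, the standard error of the fit, 0.18, and adjusted p = 0.00210, from the quasi-likelihood test of edgeR with Benjamini-Hochberg correction across every gene tested). SLC6A12 had the largest fitted fold change of the 4 genes, but SLC38A3 exceeded it without control 1 (log2 fold change 1.64 against 1.61), without dehydration 2 (1.62 against 1.57) and without control 1 and rehydration 1 together (1.68 against 1.65). By p-value SLC6A12 ranked 3 of 15064 genes in that comparison. In rehydration it was 1.71-fold higher than in control (log2 fold change 0.77, SE 0.17, adjusted p = 0.00285 in edgeR), and it fell by 0.89 on the log2 scale from dehydration to rehydration (SE 0.17, adjusted p = 0.00407 in edgeR). The call in dehydration was lost without control 6 (adjusted p = 0.0108) and without dehydration 5 (0.0109), with log2 fold changes of 1.603 and 1.55 in edgeR. The call of rehydration against control was lost without control 1 (adjusted p = 0.0101), without control 6 (0.0114) and without control 1 and rehydration 1 together (0.0107) in edgeR. The fall from dehydration to rehydration passed the test in 8 of 13 fits that left out 1 animal and missed it without dehydration 2, 5 or 6 or rehydration 4 or 8, with adjusted p-values of 0.0111 to 0.0166 (edgeR).

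The glutamine transporter SLC38A3 rose 2.90-fold in dehydration and had the widest relative spread of the 4 genes among controls and among dehydrated animals. The controls 1, 3, 4 and 6 had 208, 123, 152 and 163 CPM. The dehydrated animals 2, 3, 5 and 6 had 354, 275, 692 and 551 CPM. The rehydrated animals 1, 2, 4, 7 and 8 had 164, 192, 160, 233 and 196 CPM. All dehydrated animals lay above every other animal, while the controls and the rehydrated animals overlapped. The dehydrated animals themselves spanned a 2.51-fold range, with dehydration 3 lowest and dehydration 5 highest. Group means were 162 ± 35.3 CPM in control (SD, n = 4), 468 ± 189 in dehydration (n = 4) and 189 ± 29.4 in rehydration (n = 5).

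The log2 fold change of SLC38A3 was 1.53 in dehydration (SE 0.26, adjusted p = 0.00965 in edgeR). It fell by 1.31 from dehydration to rehydration (SE 0.24, adjusted p = 0.00361 in edgeR), the largest fall of the 4 genes. Between rehydration and control the log2 fold change was 0.23 (SE 0.24, adjusted p = 0.469 in edgeR). The call in dehydration is near the threshold of 0.01 and held in 2 of 13 fits that left out 1 animal, those without dehydration 3 and without rehydration 1, with adjusted p-values over the 13 fits of 0.00789 to 0.0334. The fall after rehydration missed the threshold without dehydration 5 (adjusted p = 0.0110), without dehydration 6 (0.0117) and without rehydration 8 (0.0104) in edgeR.

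The receptor ESRRB had the same ordering of groups at a smaller fold change. The controls 1, 3, 4 and 6 had 43.2, 42.1, 37.5 and 39.9 CPM. The dehydrated animals 2, 3, 5 and 6 had 61.4, 54.5, 80.5 and 68.4 CPM. The rehydrated animals 1, 2, 4, 7 and 8 had 40.7, 50.9, 45.8, 52.4 and 49.2 CPM. All dehydrated animals lay above every other animal, and 4 of the 5 rehydrated animals lay above every control, with rehydration 1 inside the control range. Group means were 40.7 ± 2.51 CPM in control (SD, n = 4), 66.2 ± 11.1 in dehydration (n = 4) and 47.8 ± 4.65 in rehydration (n = 5).

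ESRRB rose 1.63-fold in dehydration, a log2 fold change of 0.70 (SE 0.12, adjusted p = 0.00965 in edgeR). The log2 fold change from dehydration to rehydration was -0.47 (SE 0.11, adjusted p = 0.0104 in edgeR), just above the threshold of 0.01, although the groups did not overlap. Between rehydration and control it was 0.23 (SE 0.11, adjusted p = 0.105 in edgeR). The call in dehydration held in 1 of 13 fits that left out 1 animal, that without rehydration 1, with adjusted p-values over the 13 fits of 0.00715 to 0.0334. The comparison of rehydration with dehydration passed the threshold without dehydration 3 (adjusted p = 0.00706) and without rehydration 2 (0.00865) in edgeR.

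SLC17A3, the urate exporter, had the narrowest dehydrated group and the smallest fold change of the 4 genes in both comparisons with dehydration. The controls 1, 3, 4 and 6 had 183, 162, 168 and 197 CPM. The dehydrated animals 2, 3, 5 and 6 had 261, 246, 239 and 262 CPM. The rehydrated animals 1, 2, 4, 7 and 8 had 157, 215, 211, 240.0 and 220 CPM. Every dehydrated animal lay above every control, but rehydration 7 reached the lowest dehydrated value and rehydration 1 lay below all controls. Group means were 177 ± 15.8 CPM in control (SD, n = 4), 252 ± 11.2 in dehydration (n = 4) and 209 ± 31.1 in rehydration (n = 5).

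SLC17A3 did not pass the threshold in any of the 3 comparisons. Its log2 fold change was 0.51 in dehydration (SE 0.12, adjusted p = 0.0263 in edgeR), 0.23 between rehydration and control (SE 0.11, adjusted p = 0.103) and -0.27 between rehydration and dehydration (SE 0.11, adjusted p = 0.0870). Without rehydration 1 it passed in dehydration (adjusted p = 0.00775) and between rehydration and control (log2 fold change 0.32, adjusted p = 0.00793) in edgeR. DESeq2 called it in dehydration (adjusted p = 0.00136).

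**Figure D1:**
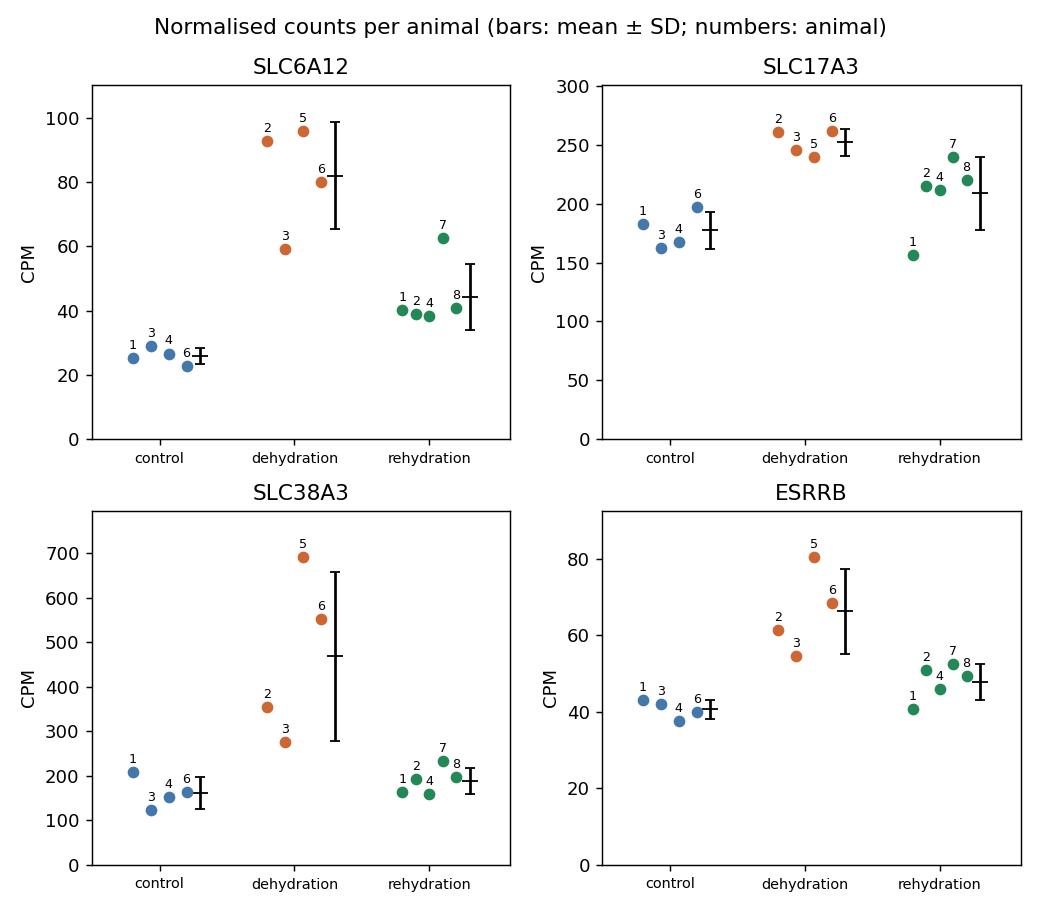
Normalised counts (CPM, y axis from 0) of SLC6A12, SLC17A3, SLC38A3 and ESRRB in each animal by group (x axis), with the animal's number above its point and the group mean ± SD as a bar. All 4 dehydrated animals lie above all 4 controls in each panel, and rehydration 7 is the highest rehydrated animal in all 4.

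Counted together, 3 of the 4 genes were called higher in dehydration, where 0.312% of all genes tested were called higher and 0.478% were called in either direction. With DESeq2, 4 of 4 were called higher, as were 417 of the 15064 genes, and edgeR fits that left out 1 animal called 0 to 4 of the 4 genes and 1 to 235 of all genes. None of the 4 was called without control 6 or without dehydration 5. In rehydration 1 of 4 was called higher than control, where 12.5% of all genes were called higher and 28.8% in either direction; 1 gene of 4 is not a result about these genes at such a share. From dehydration to rehydration 2 of 4 were called lower, where 5.5% of all genes were and 8.19% were called in either direction. The median log2 fold change of the 4 genes was 1.12, 0.23 and -0.68 in the 3 comparisons, and that of all genes tested was 0.0044, 0.027 and -0.0042.

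All dehydrated animals lay above all controls for 4 of 4 genes, as they did for 8.82% of all genes tested. All rehydrated animals lay above all controls for 1 of 4 genes, SLC6A12, and for 15.5% of all genes. All rehydrated animals lay below all dehydrated animals for SLC38A3 and ESRRB, and for 12.6% of all genes. Dehydrated animals above every control and every rehydrated animal were seen for the same 2 members and for 0.803% of all genes, or 121 of 15064.

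**Figure D2:**
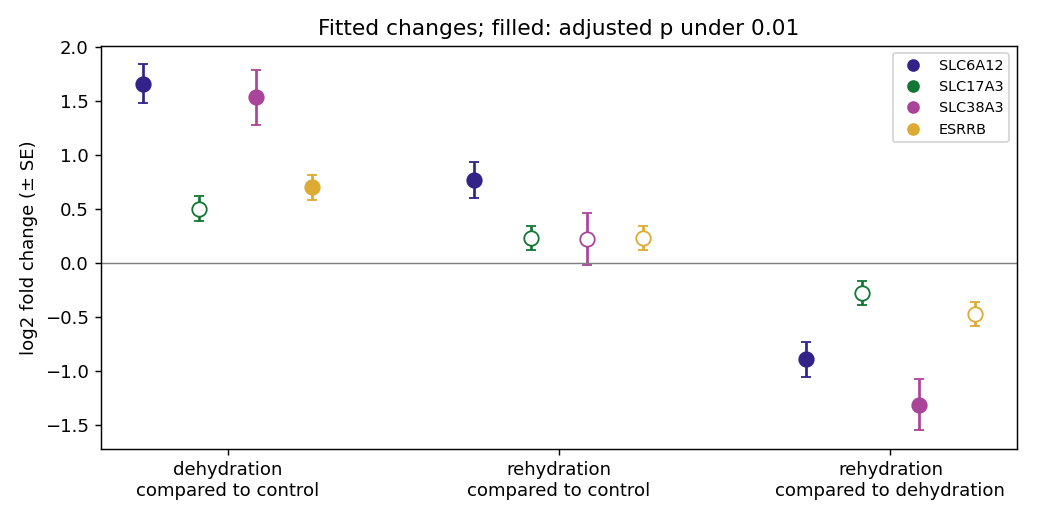
Fitted log2 fold change (y axis) of the 4 genes in each of the 3 comparisons (x axis), with bars for the standard error and filled points for an adjusted p under 0.01. SLC6A12 is filled in all 3 comparisons, SLC38A3 in both that involve dehydration, ESRRB in dehydration compared to control and SLC17A3 in none.

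Among all genes tested, the dehydration log2 fold change of SLC6A12 stood at percentile 99.2, SLC38A3 at 98.95, ESRRB at 94.3 and SLC17A3 at 90.3. The estimates differed in precision as well as size. The biological coefficient of variation of each gene, which the fit estimates from the animals, was 0.256 for SLC38A3, 0.185 for SLC6A12, 0.137 for SLC17A3 and 0.133 for ESRRB.

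**Figure D3:**
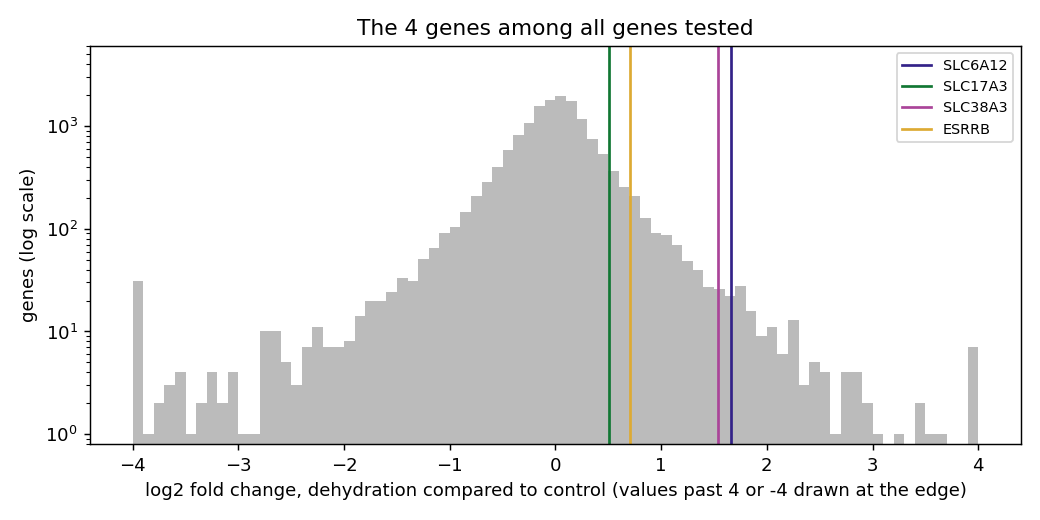
Number of genes (y axis, log scale) by log2 fold change of dehydration compared to control (x axis), for the 15064 genes tested, with a line for each of the 4 genes. SLC17A3 at 0.51 and ESRRB at 0.70 lie on the shoulder of the distribution, and SLC38A3 at 1.53 and SLC6A12 at 1.66 lie in its tail.

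The place of the rehydrated mean between the other groups is given as a description of separate animals, not of recovery within an animal. The rehydrated mean lay 9.0% of the way from the control mean to the dehydrated mean for SLC38A3, 28.0% for ESRRB, 32.7% for SLC6A12 and 41.9% for SLC17A3, on the CPM scale. Leaving out each animal in turn gave 4.99% to 13.3% for SLC38A3, 23.5% to 35.0% for ESRRB, 24.5% to 35.7% for SLC6A12 and 31.4% to 59.3% for SLC17A3. Differences between these shares were not tested. Without rehydration 7, an alternative added after seeing the data, the shares were 5.38% for SLC38A3, 23.5% for ESRRB, 24.5% for SLC6A12 and 31.4% for SLC17A3. Without control 1 and rehydration 1, also added after seeing the data, they were 15.3% for SLC38A3, 37.03% for ESRRB, 34.3% for SLC6A12 and 60.2% for SLC17A3, so the order of ESRRB and SLC6A12 depends on these animals.

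Per kilobase of annotated exon, SLC17A3 and SLC38A3 stood above ESRRB and SLC6A12 in all 3 groups. In controls SLC17A3 stood highest with 127 ± 11.3 CPM per kb (SD, n = 4) and SLC38A3 next with 103 ± 22.6, a difference within their spread. ESRRB with 29.2 ± 1.80 stood above SLC6A12 with 13.5 ± 1.34. In dehydration SLC38A3 had 299 ± 121 CPM per kb and SLC17A3 had 180 ± 8.01 (SD, n = 4), and ESRRB with 47.6 ± 7.95 and SLC6A12 with 42.6 ± 8.68 lay within each other's spread. The log2 ratio of SLC17A3 to SLC38A3 differed by -0.96 between dehydration and control, with overlapping animals (exact permutation p = 0.0571, adjusted 0.103). That ratio was 0.94 higher in rehydration than in dehydration, without overlap (exact permutation p = 0.0159, adjusted 0.0714). In rehydration SLC17A3 had 149 ± 22.2 CPM per kb, SLC38A3 121 ± 18.8, ESRRB 34.4 ± 3.34 and SLC6A12 22.98 ± 5.36 (SD, n = 5).

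The ratio of 2 members within an animal hardly depends on the scaling of its library. In 18 exact two-sided permutation tests, 6 pairs of genes in 3 comparisons, the lowest adjusted p was 0.0714, so no ratio passed 0.05 after Benjamini-Hochberg adjustment. With 4 against 4 animals the smallest p the test can give is 0.0286, and with 5 against 4 it is 0.0159. The log2 ratio of SLC6A12 to ESRRB was -0.65 ± 0.16 in control (SD, n = 4), 0.30 ± 0.21 in dehydration (n = 4) and -0.13 ± 0.25 in rehydration (n = 5). Its controls overlapped neither the dehydrated animals (difference 0.95, exact permutation p = 0.0286, adjusted 0.0735) nor the rehydrated ones (difference 0.52, exact permutation p = 0.0159, adjusted 0.0714).

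The log2 ratio of SLC6A12 to SLC17A3 behaved alike, with -2.77 ± 0.27 in control (SD, n = 4), -1.64 ± 0.32 in dehydration (n = 4) and -2.25 ± 0.27 in rehydration (n = 5). It was higher than in every control in all 4 dehydrated and all 5 rehydrated animals. The log2 ratio of SLC38A3 to ESRRB was 1.97 ± 0.30 in control (SD, n = 4), 2.74 ± 0.37 in dehydration (n = 4) and 1.97 ± 0.13 in rehydration (n = 5). In dehydration it lay above every control and every rehydrated animal, and the rehydrated and control means differed by 0.0079 (exact permutation p = 0.984).

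**Figure D4:**
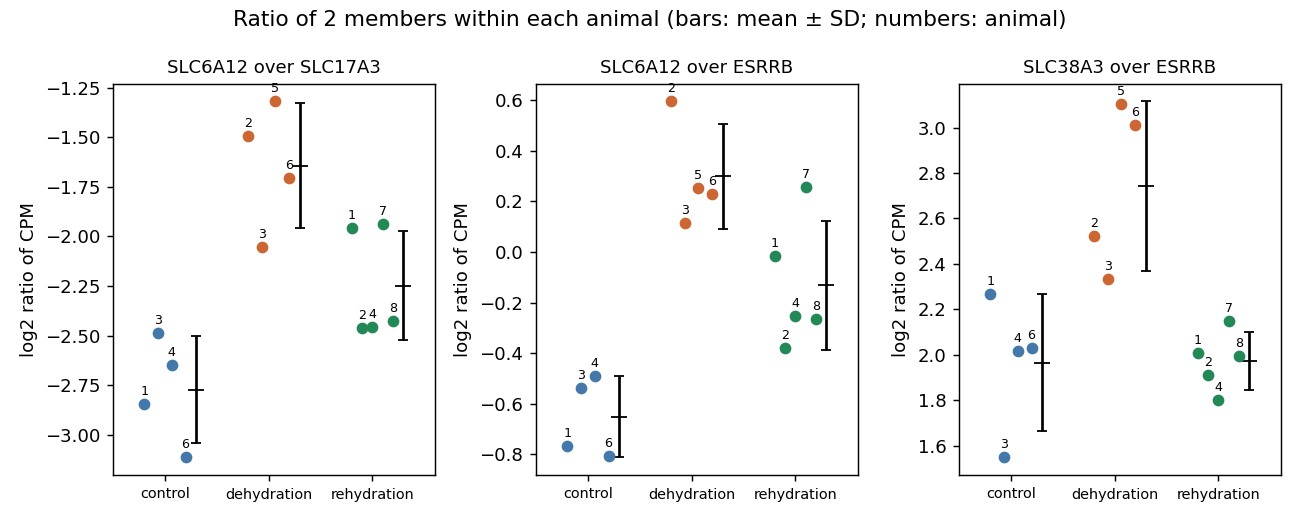
Log2 ratio of CPM of 2 genes within each animal (y axis) by group (x axis), for SLC6A12 over SLC17A3, SLC6A12 over ESRRB and SLC38A3 over ESRRB, with the animal's number at its point and the group mean ± SD as a bar. SLC6A12 over ESRRB is -0.49 or lower in all 4 controls and -0.38 or higher in every other animal. SLC38A3 over ESRRB has nearly the same mean in control and rehydration.

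Some animals stood at an end of their group for several genes. Dehydration 5 was the highest dehydrated animal and dehydration 3 the lowest for SLC6A12, SLC38A3 and ESRRB, while for SLC17A3 dehydration 6 was highest and dehydration 5 lowest. Rehydration 7, the animal with the fewest counts, was the highest rehydrated animal for all 4 genes. It was also the highest for the water channels AQP2 and AQP1, while rehydration 8 was highest for AQP3 and rehydration 4 for AQP4, SCNN1B and SCNN1G. Rehydration 1 was the lowest for SLC17A3 and ESRRB, and rehydration 4 for SLC6A12 and SLC38A3. Deviations of all genes from the group mean correlated between dehydration 3 and control 1 (0.268) and between dehydration 3 and rehydration 1 (0.285), a description across genes, which are not independent replicates. Why these animals stood at the ends of their groups was not tested.

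Likeness of profile was measured over the 13 animals as the root mean square difference of standardized log2 CPM, among 12473 other genes averaging 50 or more counts. ESRRB and SLC38A3 were each other's nearest gene, with a difference of 0.31 standard deviations. SLC6A12 ranked 2 by likeness to ESRRB and 4 by likeness to SLC38A3. By likeness to SLC6A12, ESRRB ranked 3 and SLC38A3 ranked 20. The 3 groups and the libraries are shared by all these genes, so these ranks are a description and carry no test. The study had grouped the 4 genes by co-expression in a set of animals that overlaps this one, so a high rank among them is in part given by that choice.

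SLC17A3 stood further off. Its nearest member was ESRRB at rank 24, and SLC6A12 and SLC38A3 ranked 40 and 75 by likeness to it. Without control 1 and rehydration 1 its nearest member was SLC6A12, still at rank 40, with ESRRB at 94 and SLC38A3 at 149. Its own nearest genes carry no symbol in the sources used here. AQP3, a channel for water and glycerol of the collecting duct, ranked 7 by likeness to ESRRB, 11 to SLC38A3, 44 to SLC6A12 and 174 to SLC17A3. AQP2, the channel that vasopressin regulates, ranked 26, 21, 142 and 94 in the same order. Without control 1 and rehydration 1, AQP3 ranked 21, 6, 108 and 704 and AQP2 ranked 64, 15, 87 and 757 in that order.

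**Figure D5:**
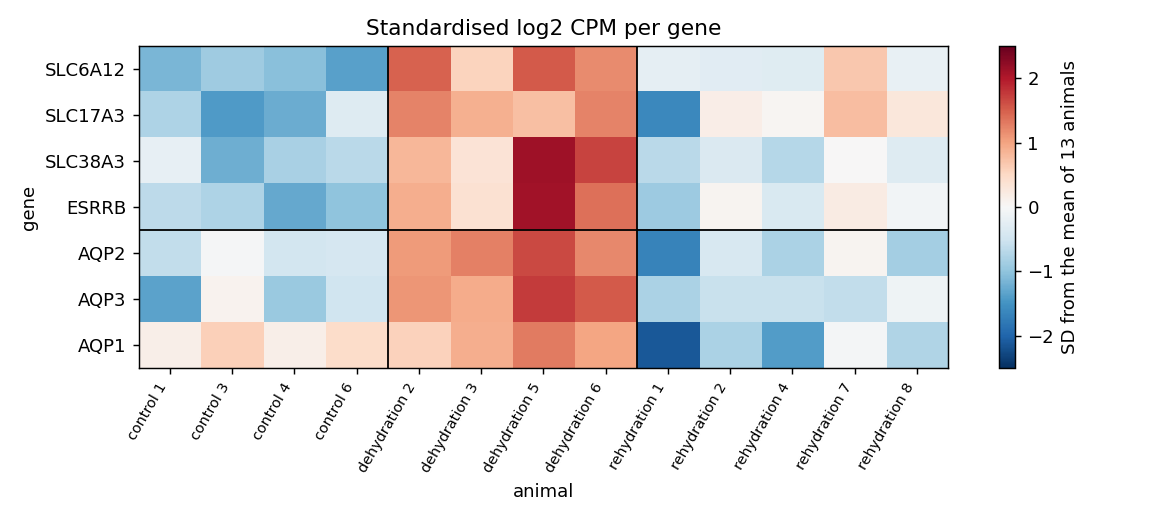
Log2 CPM of the 4 genes and of AQP2, AQP3 and AQP1, standardised to mean 0 and SD 1 over the 13 animals (colour), with 1 animal per column and 1 gene per row. Dehydration 5 is the highest animal for every gene drawn but SLC17A3, and the rehydrated animals of SLC6A12 are paler than its controls.

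The whole kidney mixes nephron segments, so fewer cells of a type and less RNA per cell cannot be told apart. Of 9 listed markers of collecting duct principal cells, 5 could be matched. In dehydration 1 of the 5 (AQP3) was called higher, as were 0.312% of all genes tested. The summed level of the 5 was 380 to 641 CPM in control, 972 to 1299 in dehydration and 512 to 687 in rehydration. AQP2 was the largest part of this sum in dehydration, with 626 ± 103 CPM (SD, n = 4), and had 189 ± 70.3 CPM in rehydration (n = 5), where SCNN1B was the largest part. SCNN1B instead had 153 ± 27.2 CPM in dehydration (SD, n = 4) and 240.1 ± 29.4 in rehydration (n = 5), and SCNN1G had 108 ± 13.9 and 128 ± 23.3. AQP4 was under 1 CPM in every animal. AQP2 had a log2 fold change of 1.49 in dehydration (SE 0.25, adjusted p = 0.0103 in edgeR) and AQP3 of 1.73 (SE 0.25, adjusted p = 0.00644 in edgeR). The call of AQP3 was lost without control 4 or 6 or without dehydration 2, 3, 5 or 6, with adjusted p-values of 0.0122 to 0.0246 (edgeR), and 0 to 2 markers were called when 1 animal was left out. DESeq2 called AQP2 as well (adjusted p = 8.25e-07). In rehydration against control the called markers were the sodium channel subunits SCNN1B (log2 fold change 1.12, adjusted p = 0.00130) and SCNN1G (0.68, adjusted p = 0.00137 in edgeR). There 12.5% of all genes tested were called higher and 28.8% in either direction. From dehydration to rehydration AQP2 fell by 1.72 and AQP3 by 1.66, and both were called lower, as were 5.5% of all genes tested. The other 3 markers had positive values in that comparison that did not pass, 0.65 for SCNN1B (adjusted p = 0.0430 in edgeR), 0.30 for AQP4 and 0.24 for SCNN1G, and the median of the 5 was 0.24. SCNN1B passed in that comparison with DESeq2 (0.68, adjusted p = 0.00967) and without control 3 (0.64, adjusted p = 0.00716 in edgeR). The part of collecting duct cell number in the results was not tested.

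Set against AQP2 within each animal, the log2 ratio of SLC6A12 was -3.09 ± 0.18 in control (SD, n = 4), -2.94 ± 0.34 in dehydration (n = 4) and -2.04 ± 0.44 in rehydration (n = 5). The rehydrated animals, from -2.48 to -1.31, lay above every other animal, the highest of which had -2.54, while the controls and the dehydrated animals overlapped. The log2 ratio of ESRRB to AQP2 was -2.44 ± 0.23 in control, -3.24 ± 0.18 in dehydration and -1.91 ± 0.43 in rehydration. The dehydrated animals, from -3.48 to -3.09, lay below every control, from -2.70 to -2.14. The log2 ratio of SLC17A3 to AQP2 was -0.32 ± 0.31 in control, -1.30 ± 0.28 in dehydration and 0.21 ± 0.36 in rehydration. Its dehydrated animals, from -1.69 to -1.05, lay below every other animal. That of SLC38A3 to AQP2 was -0.47 ± 0.52, -0.50 ± 0.49 and 0.068 ± 0.41, and its groups overlapped. AQP2 itself was 2.81-fold higher in dehydration than in control, and in rehydration it had 0.303 of its level in dehydration. The ratios to AQP2 were described, and neither they nor the part of AQP2 in them was tested.

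The proximal tubule list could be checked only through AQP1, the constitutive water channel of that segment and of the thin descending limb. AQP1 had a log2 fold change of 0.29 in dehydration (SE 0.17, adjusted p = 0.308 in edgeR) and fell by 0.62 in rehydration against control (SE 0.16, adjusted p = 0.00704 in edgeR). That call was lost without control 3, 4 or 6, dehydration 6 or rehydration 4 or 8, without control 1 and rehydration 1 together and in the fit of only those groups, with adjusted p-values of 0.0104 to 0.0197 (edgeR). From dehydration to rehydration AQP1 fell by 0.91 (SE 0.16, adjusted p = 0.00308 in edgeR). This fall missed the threshold without dehydration 5 (adjusted p = 0.0104) and in the fit of only those groups (0.0127) in edgeR. It also missed with the animal number as a block (adjusted p = 0.151 in edgeR). The log2 ratio of SLC17A3 to AQP1 was -2.09 ± 0.17 in control (SD, n = 4), -1.87 ± 0.19 in dehydration (n = 4) and -1.21 ± 0.18 in rehydration (n = 5), and all rehydrated animals lay above all others. That of ESRRB to AQP1 was -4.21 ± 0.12, -3.81 ± 0.17 and -3.33 ± 0.24, and its rehydrated animals also lay above all others, by a narrow gap (-3.66 against -3.69). That of SLC38A3 to AQP1 was -2.25 ± 0.40, -1.07 ± 0.51 and -1.35 ± 0.19, and that of SLC6A12 to AQP1 was -4.86 ± 0.17, -3.51 ± 0.33 and -3.46 ± 0.27, with dehydrated and rehydrated animals overlapping for both. AQP1 itself moved between the groups, and its part in these ratios was not tested.

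The annotated neighbours of the 4 genes on their scaffolds gave no call. The genes beside SLC6A12, at 12327 and 8645 bases, had dehydration log2 fold changes of -0.12 and 0.080. The tested neighbour of SLC17A3, at 33114 bases, had -0.27, and that of SLC38A3, at 33074 bases, had 0.19. The other neighbours of SLC38A3 and ESRRB had mean counts under 1 and were not tested.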

How the data were processed

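Per the labels and the study's methods, the authors aligned poly-A reads of whole kidney to JacJac1.0 and counted them per gene with featureCounts (Subread 1.6.2), without strand; the deposited values are raw counts. A further 2 per-sample columns carry no label here and were not used. Groups and animal numbers came from the labels, and each animal is 1 replicate. Genes averaging 8 or more counts were fitted for all 3 groups together in edgeR 4.0.16 (R 4.3.3, TMM, quasi-likelihood test, Benjamini-Hochberg over 15064 genes, called at an adjusted p under 0.01). The common dispersion was 0.0699. Log2 CPM used a prior count of 1. DESeq2 1.42.0, the authors' tool, was an alternative. Ratios were tested with exact permutation tests in scipy 1.17.1. The scripts were tested on simulated data.

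The members, lists and tests were chosen with earlier results of these data known. The genes named were the 4 members, matched list genes called in a comparison, neighbours on the scaffold and genes of like profile; markers and AQP2 were added beside them. Symbols were available only for genes whose identifiers the study prints, so AQP1 was the only proximal tubule marker matched of 10, and the lists of osmolyte, urate, glutamine and receptor genes matched no gene but the members themselves. No other marker list (thick ascending limb, distal tubule, intercalated cell, podocyte, endothelial, immune, stromal, urothelium, adrenal, adipocyte) matched a gene, and promoter sequences were not analysed here.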

Additional observations from a re-analysis of the deposited data

Results flagged for a closer look

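Of 30 groups of values examined with Dixon's test, 2 held an animal far from the rest of its group, and chance gives about 1 in 20. The first was SLC6A12 in rehydration 7, with 62.7 CPM against 40.95 CPM in the next rehydrated animal, a gap that is 0.896 of the group's range. The same animal was the highest rehydrated animal for SLC17A3, SLC38A3 and ESRRB and had the fewest counts of all. Without it SLC6A12 was still called higher in rehydration than in control (log2 fold change 0.61, adjusted p = 0.00386 in edgeR). The second was SCNN1B, a subunit of the epithelial sodium channel, in control 3, with 179 CPM against 95.6 CPM in the next control, a gap that is 0.837 of the range. Without it the log2 fold change of SCNN1B in dehydration was 0.79 (adjusted p = 0.0171 in edgeR) in place of 0.47 (0.224), and from dehydration to rehydration it was called (0.64, adjusted p = 0.00716).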

How the results depend on the processing

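No member changed sign under any of 22 alternatives, but each of the 6 calls was lost under at least 3. The dehydration calls of SLC38A3 and ESRRB lay nearest the threshold of 0.01. DESeq2 gave adjusted p-values in dehydration of 1.15e-14 for SLC6A12, 5.68e-07 for SLC38A3 and 7.22e-06 for ESRRB. In dehydration SLC6A12 was called under 19 of 22, SLC38A3 under 8, ESRRB under 7 and SLC17A3 under 4. In rehydration against control SLC6A12 was called under 18, SLC17A3 under 1 and the others under 0. In rehydration against dehydration the counts were 14 for SLC6A12, 17 for SLC38A3, 5 for ESRRB and 0 for SLC17A3. The causes of lost or gained calls were not tested. The likeness of ESRRB and SLC38A3 stayed at rank 1 each way with DESeq2 size factors and without control 1 and rehydration 1, where other ranks moved; by likeness to SLC17A3 AQP2 moved from rank 94 to 757, AQP3 from 174 to 704, ESRRB from 24 to 94 and SLC38A3 from 75 to 149.

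In the fits of only the groups compared, which hold fewer animals, the log2 fold changes were 1.52 for SLC38A3 and 0.69 for ESRRB in dehydration and -0.87 for SLC6A12 and -1.29 for SLC38A3 from dehydration to rehydration, and none passed; members called were 1 in dehydration and 0 from dehydration to rehydration. With DESeq2 size factors SLC38A3 had 1.52 in dehydration and with no filter ESRRB had 0.71, both just missing. SLC17A3 passed in dehydration with DESeq2 (0.49), without control 1 and rehydration 1 (0.52) and at an adjusted p under 0.05 (0.51). ESRRB passed from dehydration to rehydration with DESeq2 (-0.44), with only genes averaging 50 or more counts (-0.47) and at 0.05 (-0.47). Without control 1 and rehydration 1 SLC6A12 had 0.79 in rehydration against control and -0.86 against dehydration and missed the threshold, and members called were 0 and 1; AQP3 had -0.049 in rehydration against control.

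Genes called in dehydration were 72 in the fit reported, 949 with DESeq2, 118 with only genes averaging 50 or more counts, 157 in the fit of only those groups, 141 without control 1 and rehydration 1, 111 with the gene length offset and 894 at 0.05. In rehydration against control they were 4331, and 6563 at 0.05. From dehydration to rehydration they were 1233, 2769 with DESeq2, 313 in the fit of only those groups and 3614 at 0.05.

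Some animals share a number across groups. Deviations from the group means of the 5 same-numbered pairs correlated at -0.016 to 0.338 (mean 0.119, 2 over 0.1). The 51 other pairs between groups gave -0.239 to 0.285 (mean -0.011, 9 over 0.1). The highest value was that of control 1 and rehydration 1, which share a number. Not every animal correlated best with its own number, and the numbers were not taken as pairs in the fit reported. With the number as a replicate block, which leaves few degrees of freedom, edgeR called 0, 987 and 0 genes in the 3 comparisons (3110, 6396 and 2823 at an unadjusted p under 0.05) and 0 members in each. Dehydration 5, rehydration 7 and rehydration 8 carry numbers that no other animal has, so they do not inform the group differences of that fit. Dehydration 5 was the highest dehydrated animal for SLC6A12, SLC38A3 and ESRRB. In the block fit SLC6A12 had 1.53, 0.49 and -1.04, SLC38A3 1.28 in dehydration and -1.24 after it, and ESRRB 0.53 in dehydration. In rehydration against control AQP1 had -0.80 and also lost its call (adjusted p = 0.0148 in edgeR), as did SCNN1B with 1.32 (0.0301). SCNN1G had 0.95 in that comparison and was still called (adjusted p = 0.00603 in edgeR).

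Leaving out each animal in turn gave log2 fold changes in dehydration of 1.55 to 1.78 for SLC6A12, 1.26 to 1.71 for SLC38A3, 0.57 to 0.77 for ESRRB and 0.45 to 0.56 for SLC17A3. In rehydration against control it gave 0.61 to 0.83 for SLC6A12, 0.17 to 0.32 for SLC17A3 and -0.12 to 0.31 for AQP3. SLC38A3 had 0.091 to 0.35 in that comparison. In rehydration against dehydration it gave -1.05 to -0.79 for SLC6A12, -1.51 to -1.04 for SLC38A3 and -0.56 to -0.35 for ESRRB. There SLC17A3 had -0.33 to -0.16. Members called ranged from 0 to 4, 0 to 2 and 0 to 3 in the 3 comparisons, and genes called from 1 to 235 in dehydration and from 380 to 2005 from dehydration to rehydration. The log2 ratios near 0 in rehydration against control changed sign: -0.13 to 0.066 for SLC17A3 over SLC38A3, -0.064 to 0.054 for SLC17A3 over ESRRB (0.023 without control 1 and rehydration 1) and -0.13 to 0.11 for SLC38A3 over ESRRB.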
